A study of Homo sapiens with 18 samples.

Results

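The comparison is of HEK293 cells that received the control vector, 48 h against 24 h after transfection. Its changes come from 6 of the series' 18 arrays, chosen by title: 3 control arrays at 24 h and 3 at 48 h. The spread in the tests was estimated from all 18 arrays. All 21214 transcript clusters with a gene symbol were compared, of 33297 in the table. A transcript cluster is the set of probes that the array assigns to one gene or transcript unit.

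HEK293 is an established line derived from human embryonic kidney. The cells of both groups were given the vector that the labels call empty (the protocol names pCMV6-AC-GFP from OriGene) with Lipofectamine 2000 in serum-free DMEM/F12 medium, in 24-well plates. The groups differ in the labelled time after transfection. The other 12 arrays hold cells given a plasmid for the homeobox gene RHOXF1 or RHOXF2, with 3 arrays for each plasmid and time. The series text calls the 3 arrays of a group biological triplicates and does not say whether they came from separate cultures. The p-values therefore measure the spread between arrays of a group, pooled over control, RHOXF1 and RHOXF2 groups at both times. No sample from untransfected cells or from the moment of transfection was analysed here, the share of cells that took up the vector is not given in the sources used here, and whether the medium was changed is not stated. The running numbers in the array descriptions are 3, 6 and 9 for the control arrays at 24 h and 18, 21 and 24 for those at 48 h, so the batch of the arrays and the time cannot be told apart. In bulk RNA, fewer cells of a kind and less RNA per cell cannot be told apart either.

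The cells carried the markers of the line. NEFL and NEFM, neurofilament genes expressed in HEK293, lay between 12.55 and 13.01 on the log2 scale on the 6 arrays, where the array medians of named clusters were 7.42 to 7.52. Of the 7 markers of the line that were looked up, 6 lay above the median on every control array, and PAX2, a kidney transcription factor, lay between 6.40 and 6.65. Of 25 markers of other cell types, 24 were below the median on all 6 arrays; CD68 was the exception, at 8.02 to 8.34. The mean level of these 25 was 5.32 to 5.48 at 24 h and 5.27 to 5.34 at 48 h, and 2 of them, CD14 and TG, passed the test described below as lower at 48 h. The call of TG was lost under 5 alternatives and that of CD14 without the third array of 48 h, where none of the 25 passed as lower; 7 passed as lower when arrays were centred. Of the markers of the line, NEFL, VIM and KRT8 passed as higher, by 0.24 to 0.58 on the log2 scale, each a call lost under 3 to 6 of the alternatives. RHOXF1, the gene of a plasmid given to other cells, was dim in control cells: its cluster read 5.67 to 6.56 over the 6 arrays, and its change between the times did not pass (log2 change -0.21, unadjusted p = 0.551 in the limma fit).

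Growing cells in culture are known to spend much of their capacity on making ribosomes, on histones for new DNA, and on the chaperones and proteasomes that handle new protein. Other programmes of cultured cells serve contact with the dish and with neighbours (matrix and adhesion genes), amino acid supply (ATF4 targets) and the recycling of cell content (lysosome and autophagy genes). Cell density and growth were not among the measurements used here.

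Between 24 h and 48 h, 3772 clusters passed the test at an adjusted p of 0.05 (17.8% of those tested, limma with Benjamini-Hochberg adjustment). Of these, 2098 were higher at 48 h (9.89%) and 1674 lower (7.89%). Most changes were small. The median change was 0.45 on the log2 scale among the clusters that rose and -0.37 among those that fell, against a median SD between the 3 arrays of 0.123 at 24 h and 0.125 at 48 h. A change of more than 2-fold was found for 48 clusters that rose and 11 that fell. Over all clusters the median change was -0.03. The shares that passed varied with level. Of clusters with levels between 9.42 and 13.87, 8.77% rose and 13% fell. Of those between 2.61 and 5.34, 1.6% rose and 4.74% fell. Between 6.78 and 8.14, 17.1% rose and 5.52% fell, and between 8.14 and 9.42, 16% rose and 8.18% fell.

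The size of this set depended on the arrays and on the scaling. It was 2125 without the second array of 24 h, 2396 without the second array of 48 h and 2073 without the third. With the spread taken from the 6 control arrays alone, 1595 passed (1067 higher, 528 lower). When each array was centred on its own median, 5178 passed, of which 1519 were higher and 3659 lower, so the share of higher calls was 29.3% in place of 55.6%. In a principal component analysis of the 6 arrays, the first component held 49.7% of the variance and placed the 24 h arrays at -17.6, -19.6 and -18.5 and the 48 h arrays at 8.85, 20.9 and 25.9. The first 48 h array therefore lay nearest to the 24 h arrays.

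**Figure D1:**
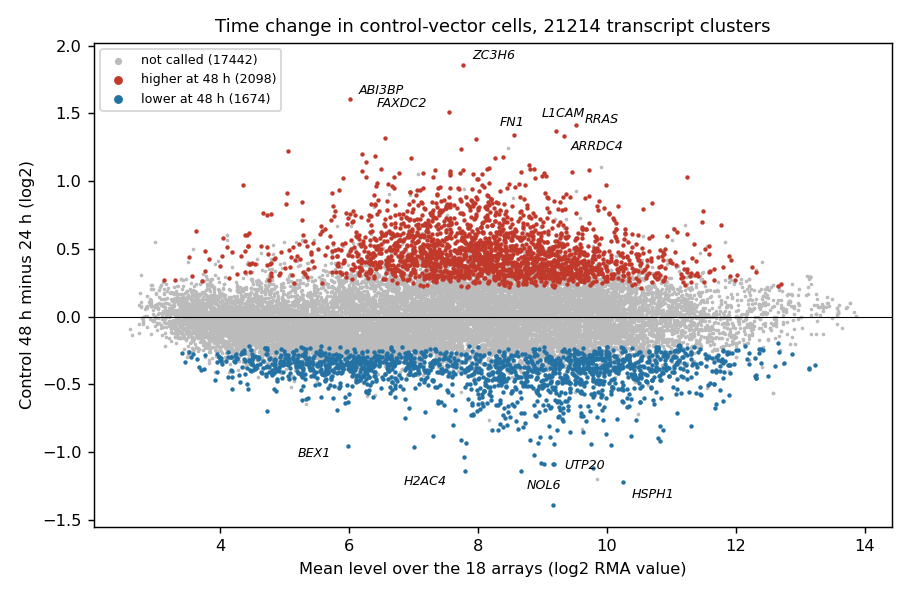
Log2 change in control cells (48 h minus 24 h, vertical axis) against the mean log2 level over the 18 arrays (horizontal axis) for the 21214 clusters; red and blue points passed the test at an adjusted p of 0.05 and grey points did not. The 12 labelled genes are among the largest rises and falls, from ZC3H6 at 1.86 to HSPH1 at -1.22.

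The largest rises came from genes of varied roles. ZC3H6, which encodes a zinc finger protein of the CCCH class, read 7.60, 6.92 and 6.49 at 24 h and 8.39, 9.25 and 8.96 at 48 h. It rose by 1.86 ± 0.32 on the log2 scale (SE, n = 3 arrays at each time here and below; 3.63-fold, adjusted p = 0.00133). ABI3BP, an extracellular matrix protein gene, went from 5.82, 5.19 and 5.15 to 6.67, 7.12 and 7.18, a rise of 1.61 ± 0.24 (adjusted p = 6.67e-04). For both genes each array of 48 h was above each array of 24 h. The largest rises and falls were named only among clusters without overlap, so this was a condition of the choice.

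RRAS, a small GTPase related to RAS that acts on integrin adhesion, read 9.25, 8.47 and 8.91 at 24 h and 10.49, 10.22 and 10.18 at 48 h, a rise of 1.42 ± 0.19 (adjusted p = 4.00e-04). FAXDC2, a gene of the fatty acid hydroxylase family, rose by 1.51 ± 0.25, and AHNAK2, a very large scaffold protein gene, by 1.32 ± 0.22. Among enzymes and transporters, GALNT12, which starts mucin-type O-glycans, rose by 1.24 ± 0.19, AOAH, an acyloxyacyl hydrolase, by 1.23 ± 0.18, and SLC4A5, a bicarbonate cotransporter, by 1.20 ± 0.20. In each of the 12 largest rises named, FN1, L1CAM and ARRDC4 below included, the first array was the highest of the 24 h group. ZP3, known as a zona pellucida protein of the egg coat, rose by 1.31 ± 0.18 (adjusted p = 4.43e-04), from 7.04 to 7.80 at 24 h to 8.43 to 8.86 at 48 h.

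A chaperone gene and a ribosome biogenesis gene were among the largest falls. HSPH1, which encodes the HSP110 chaperone, read 10.28, 10.69 and 10.78 at 24 h and 9.45, 9.18 and 9.45 at 48 h. It fell by 1.22 on the log2 scale (SE 0.15, 2.33-fold, adjusted p = 3.44e-04). NOL6, a nucleolar protein of the small-subunit processome, read 9.02, 8.86 and 9.14 and then 7.91, 7.93 and 7.77, a change of -1.14 ± 0.17 (2.20-fold, adjusted p = 6.82e-04). The times did not overlap for either gene, as the choice of the largest falls required.

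Other large falls came from genes of varied roles. SLC27A4, a fatty acid transport protein, changed by -1.11 ± 0.19, PIGW, an enzyme of the GPI anchor pathway, by -1.09 ± 0.20, and NCOA5, a nuclear receptor coregulator, by -1.08 ± 0.20. DPH2, which takes part in making diphthamide on elongation factor 2, changed by -1.08 ± 0.15. BEX1, a gene of the brain-expressed X-linked family, read 6.14, 6.42 and 6.39 at 24 h and 5.36, 5.22 and 5.52 at 48 h (-0.95 ± 0.12, adjusted p = 3.44e-04). The long noncoding RNA LINC01963 changed by -0.96 ± 0.17.

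**Figure D2:**
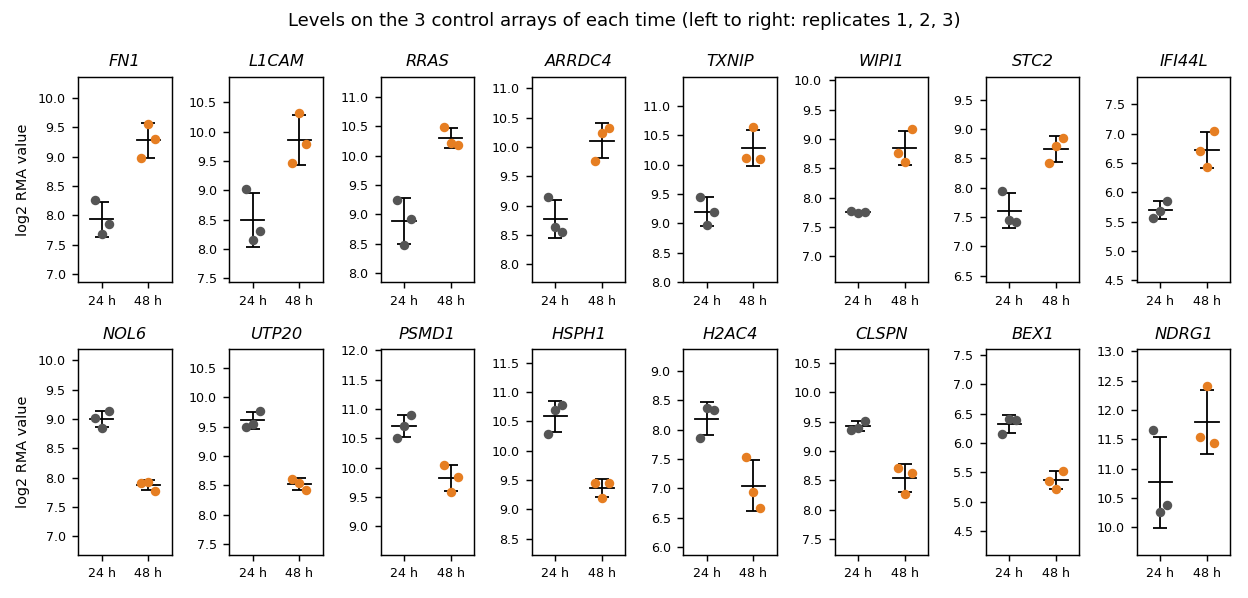
Log2 RMA level of 16 genes on the 3 control arrays at 24 h (grey) and 48 h (orange); bars are the mean and SD of 3 arrays, and every panel spans the same range of 3.5 on the log2 scale. In 15 panels the arrays of the 2 times do not overlap, which was a condition of choice for the largest rises and falls. In NDRG1 the first 24 h array (11.65) lies within the 48 h arrays.

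Most of the nucleolar ribosome biogenesis genes fell. Of 51 measured genes for ribosome biogenesis in the nucleolus, 31 fell and none rose, and 39 had all 3 arrays of 48 h below those of 24 h (15.7% of all clusters tested did so, and the times did not overlap in either direction for 30.3%). Falls made up 60.8% of the list, against 7.89% of all clusters tested. The median change of the list was -0.35, against -0.03 over all clusters. The list mean was 10.14 to 10.36 on the arrays of 24 h and 9.81 to 9.89 on those of 48 h. Without the third array of 24 h, the highest for this list, 19 members fell and 1 rose.

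Members with different roles in the pathway fell. POLR1A, the largest subunit of RNA polymerase I, which transcribes the ribosomal RNA precursor, read 10.19, 10.06 and 10.31 and then 9.55, 9.53 and 9.42 (-0.69 ± 0.10, adjusted p = 4.81e-04). UTP20, a component of the small-subunit processome, read 9.50, 9.55 and 9.78 and then 8.62, 8.54 and 8.42 (-1.08 ± 0.14, adjusted p = 4.00e-04). RRP9, a protein of the U3 small nucleolar ribonucleoprotein, changed by -1.02 ± 0.23. The factors that finish the small subunit, PNO1 (-0.94 ± 0.16) and LTV1 (-0.87 ± 0.14), also fell. Members that did not pass included TCOF1 (-0.24, adjusted p = 0.0539), which acts with RNA polymerase I, and GAR1 (-0.32, adjusted p = 0.0643), a protein of the H/ACA particles.

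The proximal promoter of UTP20 is shown because the E-box CACGTG, the site bound by MYC and related factors, is frequent among these genes. It is given as in RefSeq (GRCh38.p14) for chr12:101279855-101280104 on the plus strand, 250 bases that end at the base before the annotated transcript start. The E-box is in capitals.
UTP20: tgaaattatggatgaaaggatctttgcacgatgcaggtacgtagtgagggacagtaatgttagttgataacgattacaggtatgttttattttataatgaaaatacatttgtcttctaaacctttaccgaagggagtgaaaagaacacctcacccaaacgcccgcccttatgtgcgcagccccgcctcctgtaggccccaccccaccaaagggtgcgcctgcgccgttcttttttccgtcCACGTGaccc
The sequence CACGTG, which reads the same on both strands, begins 10 bases before the start. In the table's windows of 300 bases (250 before and 50 after the start), it was found for 17 of the 41 list members with an entry (41.5%) and for 7.43% of all 27305 promoters. Among the 24 members with an entry that fell, 11 held it (45.8%). A match is a description of letters, and no binding was measured.

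Mitochondrial ribosomal protein genes fell in part. Of 69 measured, 19 fell (27.5%, against 7.89% of all clusters tested) and none rose, with a median of -0.18. The list's median level was 9.78, and among clusters between 9.42 and 13.87, 13% fell. MRPL1, of the large subunit, read 7.72, 8.26 and 8.37 at 24 h and 7.28, 6.82 and 7.13 at 48 h (-1.04 ± 0.17, adjusted p = 0.00104). MRPL20 (-0.63 ± 0.11), MRPL35 (-0.56 ± 0.11) and MRPL27 (-0.49 ± 0.10) fell as well. The count was less stable than that of the nucleolar genes: 8 members fell without the second array of 24 h, 6 without the third, 7 without the second array of 48 h, 11 without the third, and 7 with the spread from the control arrays alone.

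Cytosolic ribosomal protein genes, which code for the finished parts of the ribosome, had other values. None of the 58 fell, 4 rose (6.9%, against 9.89% of all clusters tested), and the median was 0.11. A positive change was seen in 52, and in 43 when arrays were centred. In 26 members the arrays of 48 h all lay above those of 24 h, as in 14.7% of all clusters tested. RPL22 read 6.89, 6.86 and 7.11 and then 7.49, 7.39 and 7.30 (0.44 ± 0.10, adjusted p = 0.00580). The other 3, RPL12, RPL17 and RPL26, rose by 0.23 to 0.34, and their calls were lost under 7 to 10 of the alternatives. With one array left out, 1 to 4 members rose; the count was 1 without the second array of 24 h, 1 without the second or the third array of 48 h, and 2 without the third array of 24 h.

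Small nucleolar RNAs mostly did not pass. Of 115 clusters of C/D box RNAs, which guide ribose methylation, 2 rose (1.74%, against 9.89% of all clusters tested). SNORD117 was the larger, from 7.44, 7.52 and 7.60 to 8.43, 8.78 and 8.18 (0.94 ± 0.15, adjusted p = 0.00101). Of 77 clusters of H/ACA and Cajal body RNAs, 1 rose and 1 fell (1.3% each, against 9.89% and 7.89% of all clusters tested). SCARNA22 rose from 7.80, 8.20 and 7.79 to 8.62, 8.67 and 8.91 (0.80 ± 0.17). Without the first array of 48 h, 4 C/D clusters and 5 H/ACA clusters rose. Among 4 snoRNA host genes on clusters of their own, SNHG29 (0.36 ± 0.09) and EPB41L4A-AS1 (0.44 ± 0.10) rose, and neither did without the third array of 48 h.

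Most proteasome subunit genes fell. Of 35 measured subunit genes, 21 fell (60%) and none rose, with a median of -0.34. In 24 members the arrays of 48 h all lay below those of 24 h. Of all clusters tested, 7.89% fell and 15.7% had all arrays of 48 h below those of 24 h. Of clusters with levels between 9.42 and 13.87, 13% fell. PSMD1, the large scaffold of the regulatory particle, read 10.52, 10.71 and 10.90 at 24 h and 10.04, 9.59 and 9.84 at 48 h (-0.88 ± 0.13, adjusted p = 4.81e-04). PSMD14, the deubiquitinase of its lid, changed by -0.46 ± 0.08, PSMA7, of the core's alpha ring, by -0.53 ± 0.09, and PSME3, the nuclear activator PA28 gamma, by -0.81 ± 0.15. The subunit gene ADRM1, a ubiquitin receptor, read 10.76, 10.59 and 10.98 and then 10.74, 9.99 and 10.09 and did not pass (adjusted p = 0.0746); its first array of 48 h lay at the level of 24 h. With one control array left out, 15 to 23 members fell.

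**Figure D3:**
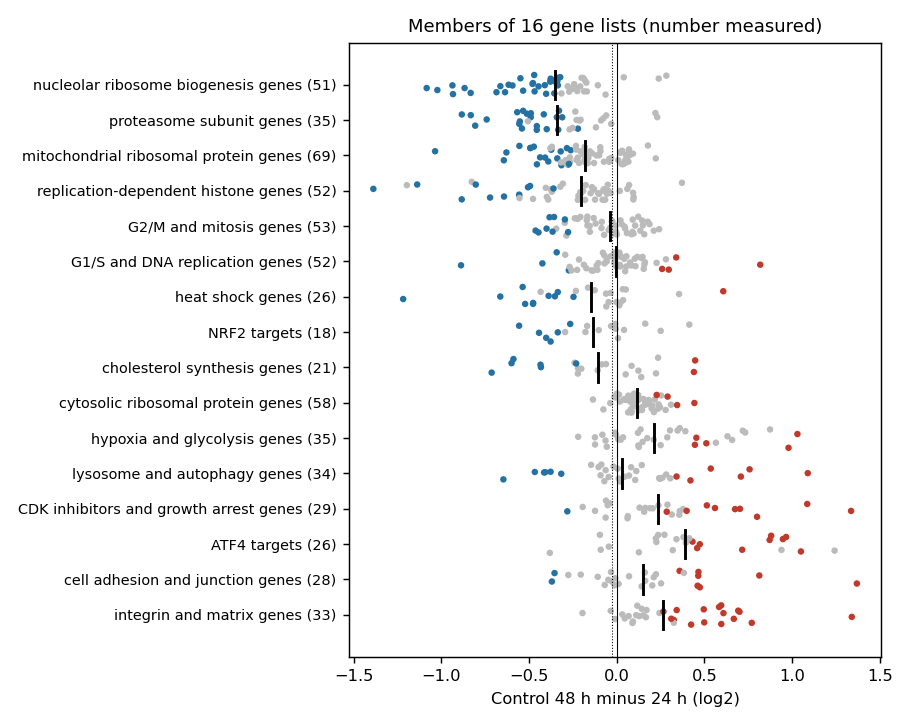
Log2 change (48 h minus 24 h, horizontal axis) of every measured member of 16 gene lists, with red and blue for members that rose or fell and grey for those that did not pass; the black bar is the list's median and the dotted line the median of all clusters (-0.03). Medians run from -0.35 for nucleolar ribosome biogenesis to 0.39 for ATF4 targets.

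Replication-dependent histone genes, which are transcribed in S phase for new chromatin, fell in part and unevenly over the arrays. Of 52 measured, 10 fell (19.2%, against 7.89% of all clusters tested) and none rose, with a median of -0.21. When arrays were centred 18 fell. H2AC4 read 7.86, 8.36 and 8.34 at 24 h and 7.53, 6.94 and 6.67 at 48 h (-1.14 ± 0.21, adjusted p = 0.00211). H2AC21 changed by -0.64 ± 0.14 and the linker histone H1-1 by -0.72 ± 0.16. H4C2 read 10.76, 11.24 and 11.17 and then 10.75, 10.14 and 9.87 (-0.80 ± 0.20, adjusted p = 0.00984), so its first array of 48 h reached the 24 h level.

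The first array of 48 h stood apart for this list. The list mean was 7.92, 7.93 and 8.09 at 24 h and 8.01, 7.63 and 7.39 at 48 h. Without that array 24 members fell, without the second array of 48 h 6, without the third 3, and without the third array of 24 h 4. H2BC14, singled out after its values were seen, had the largest change of the list (-1.39 ± 0.43, adjusted p = 0.0351), yet its times overlapped, with 9.46, 9.24 and 10.40 against 9.50, 7.87 and 7.57.

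The promoter of H2AC4 is shown for its octamer, the element ATTTGCAT bound by OCT1 and common in promoters of H2A and H2B genes. It is the RefSeq sequence (GRCh38.p14) of chr6:26033619-26033868 on the minus strand, with the octamer in capitals as it reads on the gene's strand, the reverse complement of the letters given.
H2AC4: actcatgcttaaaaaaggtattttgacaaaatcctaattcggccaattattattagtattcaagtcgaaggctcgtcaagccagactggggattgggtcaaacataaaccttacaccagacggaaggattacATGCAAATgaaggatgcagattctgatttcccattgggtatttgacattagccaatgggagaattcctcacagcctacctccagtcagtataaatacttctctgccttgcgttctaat
The match begins 118 bases before the start. Of the 47 histone genes on the list with a promoter entry, 22 held the octamer on either strand (46.8%), against 1.80% of all promoters. Among the 8 with an entry that fell it was 4 (50%).

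Of 53 genes of G2 and mitosis, 8 fell and none rose, with a median of -0.04. The share that fell was 15.1%, against 7.89% of all clusters tested. The median level of the list was 10.13, and of all clusters with levels between 9.42 and 13.87, 13% fell. When arrays were centred 15 fell, and with the control arrays alone 1 fell. BUB1, a spindle checkpoint kinase, read 10.77, 10.71 and 10.78 and then 10.45, 10.31 and 10.15 (-0.45 ± 0.10, adjusted p = 0.00524), and ECT2, needed for cytokinesis, changed by -0.40 ± 0.09. Leaving out one array gave 2 to 11 members that fell; it was 5 without the second array of 24 h, 2 without the third, 4 without the second array of 48 h and 3 without the third. CCNA2, cyclin A2, did not pass (-0.21, adjusted p = 0.0518).

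Of 52 genes of G1/S and DNA replication, 4 rose and 4 fell (7.69% each, against 9.89% and 7.89% of all clusters tested). Neither share was above that of all clusters. When arrays were centred 2 rose and 9 fell, and with the control arrays alone 1 rose and 2 fell. CLSPN, the checkpoint adaptor claspin, read 9.36, 9.40 and 9.52 and then 8.72, 8.27 and 8.63 (-0.89 ± 0.11, adjusted p = 3.44e-04), and CCNE2, cyclin E2, changed by -0.42 ± 0.10. CDT1, which licenses replication origins, rose from 9.79, 9.02 and 9.35 to 10.38, 10.33 and 9.91 (0.82 ± 0.17). With one array left out, 1 to 5 members rose (1 without the second array of 24 h and 1 without the third array of 48 h) and 2 to 4 fell (2 without the third array of 24 h).

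Further cytosolic chaperones fell beside HSPH1. Of 26 measured heat shock genes, 10 fell and 1 rose, with a median of -0.14. The shares were 38.5% and 3.85%, against 7.89% and 9.89% of all clusters tested. HSPA8, the constitutive HSC70, read 13.29, 13.31 and 13.32 and then 13.01, 12.82 and 13.03 (-0.35 ± 0.07, adjusted p = 0.00344). HSPA4, of the HSP110 family, changed by -0.48 ± 0.10, and STIP1, which links HSP70 to HSP90, by -0.48 ± 0.10. DNAJB1, an HSP40 partner, read 8.96, 9.32 and 9.45 and then 8.95, 8.58 and 8.90 and did not pass (-0.43, adjusted p = 0.171). Without the second or the third array of 48 h, 6 members fell, as they did with the spread from the control arrays alone; the call for HSPA8 was lost in that last setting.

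The inducible HSP70 genes share clusters. The 5 clusters assigned to both HSPA1A and HSPA1B fell by 0.38 to 0.45 (adjusted p 0.00864 to 0.0212), from levels of 12.18 to 13.20 at 24 h. Some of these clusters had identical or nearly identical values on every control array, so the 5 are not independent. The cluster shared by HSPA7 and HSPA6 changed by -0.74 ± 0.24 (adjusted p = 0.0405), while that of HSPA6 alone changed by -0.16 and did not pass. Which of the paired genes gave the signal cannot be told from shared probes.

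HSPA8 is shown for its heat shock elements, the alternating GAA and TTC units bound by HSF1. The RefSeq sequence (GRCh38.p14) is chr11:123062137-123062386 on the minus strand, with matches to GAANNTTCNNGAA on either strand in capitals.
HSPA8: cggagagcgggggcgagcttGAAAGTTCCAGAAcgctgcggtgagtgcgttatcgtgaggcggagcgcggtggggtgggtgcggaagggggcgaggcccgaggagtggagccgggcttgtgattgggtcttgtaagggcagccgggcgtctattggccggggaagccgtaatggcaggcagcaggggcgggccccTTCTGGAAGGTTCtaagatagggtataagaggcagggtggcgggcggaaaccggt
The 2 matches begin 230 and 55 bases before the start. Of 23 list members with a promoter entry, 6 held the element (26.1%), against 0.487% of all promoters. It was held by 3 of the 11 members called in either direction (27.3%).

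Genes of the ER chaperones and unfolded protein response moved both ways. Of 19, 3 rose and 4 fell (15.8% and 21.1%, against 9.89% and 7.89% of all clusters tested). HERPUD1, of ER-associated degradation, rose from 9.70, 9.09 and 9.34 to 10.20, 10.23 and 10.38 (0.89 ± 0.19, adjusted p = 0.00462). DNAJB11, a co-chaperone of the ER lumen, changed by -0.55 ± 0.12 and CRELD2 by -0.50 ± 0.09. With one array left out, 1 to 4 members rose, 1 without the second array of 24 h, and 3 or 4 fell.

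Of 18 targets of NRF2, the regulator of the antioxidant response, 6 fell (33.3%, against 7.89% of all clusters tested) and none rose (median -0.14). GCLM, the modifier subunit of glutamate-cysteine ligase in glutathione synthesis, read 7.55, 7.61 and 7.87 and then 7.08, 7.15 and 7.14 (-0.56 ± 0.11, adjusted p = 0.00305), and kept its call under every alternative that tested it. The other members lost calls easily: 2 of the list fell without the second or the third array of 24 h, 1 without the second array of 48 h, 2 without the third, and 1 with the spread from the control arrays alone.

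Among 21 genes of cholesterol synthesis and its control, 6 fell and 2 rose (28.6% and 9.52%, against 7.89% and 9.89% of all clusters tested). HMGCS1, which makes HMG-CoA, read 10.30, 10.81 and 10.57 and then 9.88, 9.85 and 10.16 (-0.60 ± 0.14, adjusted p = 0.00677), ACAT2 changed by -0.71 ± 0.14 and NSDHL by -0.59 ± 0.11. SREBF2, the transcription factor that controls the pathway, rose from 9.69, 9.59 and 9.59 to 10.14, 10.13 and 9.95 (0.45 ± 0.07, adjusted p = 9.89e-04). Without the third array of 48 h, 3 fell; the number that rose was 1 without the first or the second array of 24 h or the third of 48 h. Further lists were small. Of 13 fatty acid synthesis genes 1 rose and 2 fell (7.69% and 15.4%). Of 12 metallothionein and zinc export genes 2 fell (16.7%). Among 19 tRNA synthetases 2 fell (10.5%), and among 9 replication-independent histone genes 3 fell (33.3%). The shares over all clusters tested were 9.89% for rises and 7.89% for falls. In the zinc list SLC30A1, a zinc exporter, changed by -0.55 ± 0.12, and of the synthetases RARS1, for arginine, by -0.49 ± 0.09. No member of the fatty acid list fell without the second or the third array of 24 h or the second of 48 h, and no replication-independent histone gene fell with the control arrays alone or without the second array of 48 h.

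Of 69 respiratory chain genes, 5 fell and 1 rose, with a median of -0.06. The shares were 7.25% and 1.45%, against 7.89% and 9.89% of all clusters tested. When arrays were centred 10 fell, and with the control arrays alone 2 fell. NDUFA9, of complex I, read 10.75, 10.84 and 10.94 and then 10.50, 10.48 and 10.38 (-0.39 ± 0.10, adjusted p = 0.0112). With one array left out, 1 to 6 members fell: 3 without the second array of 24 h or of 48 h, 1 without the third of 24 h and 2 without the third of 48 h.

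Many matrix and integrin genes rose. Of 33 measured, 16 rose (48.5%, against 9.89% of all clusters tested) and none fell, with a median of 0.27. The list's median level was 8.51, and among clusters between 8.14 and 9.42, 16% rose. In 16 members the arrays of 48 h all lay above those of 24 h (14.7% of all clusters tested did so). FN1, which encodes fibronectin, read 8.27, 7.68 and 7.86 at 24 h and 8.98, 9.56 and 9.30 at 48 h (1.34 ± 0.18, 2.53-fold, adjusted p = 4.14e-04). HSPG2, the basement membrane proteoglycan perlecan, rose by 0.77 ± 0.13, the collagen gene COL6A1 by 0.70 ± 0.12, and the gelatinase MMP2 by 0.69 ± 0.12. Without the second array of 24 h 9 members rose, and 10 without the third array of 48 h or with the spread from the control arrays alone. When arrays were centred on their medians, 12 rose and 1 fell.

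Cell contact genes rose more often than they fell. Of 28, 7 rose and 2 fell (25% and 7.14%, against 9.89% and 7.89% of all clusters tested), with a median of 0.15. The list's median level was 9.10, and among clusters between 8.14 and 9.42, 16% rose and 8.18% fell. L1CAM, a neural adhesion molecule of the immunoglobulin family, read 9.02, 8.16 and 8.31 and then 9.48, 10.32 and 9.80 (1.37 ± 0.24, adjusted p = 0.00152). NCAM1, of the same family, rose by 0.81 ± 0.15, JUP, plakoglobin of junction plaques, by 0.47 ± 0.11 and the claudin CLDN7 by 0.46 ± 0.11. Without the second array of 48 h 4 members rose, and the 2 falls were lost without the third array of 24 h, the second of 48 h or the third of 48 h and came to 1 without the second of 24 h.

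Genes of growth arrest rose more often than they fell. Of 29 genes of CDK inhibitors and growth arrest, 9 rose and 1 fell, with a median of 0.24. The shares were 31% and 3.45%, against 9.89% and 7.89% of all clusters tested. The list's median level was 8.80, and among clusters between 8.14 and 9.42, 16% rose and 8.18% fell. The arrestin-like pair ARRDC4 and TXNIP, both known to respond to glucose and to limit its uptake, were the largest. ARRDC4 read 9.14, 8.63 and 8.54 and then 9.76, 10.24 and 10.32 (1.34 ± 0.20, adjusted p = 6.82e-04). TXNIP read 9.45, 8.96 and 9.19 and then 10.11, 10.64 and 10.10 (1.09 ± 0.17, adjusted p = 8.20e-04). YPEL5 rose by 0.80 ± 0.11 and the sestrin SESN3 by 0.40 ± 0.08, and all 4 kept their calls under every alternative.

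Targets of ATF4, the transcription factor of amino acid shortage and the integrated stress response, had the highest median of the lists, 0.39 for 26 genes. Of these 9 rose (34.6%, against 9.89% of all clusters tested) and none fell. The list's median level was 8.91, and among clusters between 8.14 and 9.42, 16% rose. STC2, a secreted glycoprotein, read 7.95, 7.45 and 7.42 and then 8.41, 8.72 and 8.84 (1.05 ± 0.22, adjusted p = 0.00438). VLDLR, a lipoprotein receptor, rose by 0.97 ± 0.15, DDIT3, the factor CHOP, by 0.95 ± 0.21, and ATF3 by 0.71 ± 0.13. TRIB3, a pseudokinase induced by ATF4, read 7.58, 7.31 and 7.34 and then 7.89, 7.44 and 8.09 and did not pass (0.39, adjusted p = 0.0568).

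The 48 h arrays were not alike for these targets. The list mean was 8.95, 8.64 and 8.72 at 24 h and 9.27, 8.95 and 9.44 at 48 h, so the second array of 48 h lay at the level of the first of 24 h. Without the second array of 48 h 14 members rose, and without the third 4.

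ATF3 is shown for the composite element TGATGNAA, read by dimers of ATF4 and C/EBP factors. The RefSeq sequence (GRCh38.p14) is chr1:212565157-212565406 on the plus strand, with the match in capitals.
ATF3: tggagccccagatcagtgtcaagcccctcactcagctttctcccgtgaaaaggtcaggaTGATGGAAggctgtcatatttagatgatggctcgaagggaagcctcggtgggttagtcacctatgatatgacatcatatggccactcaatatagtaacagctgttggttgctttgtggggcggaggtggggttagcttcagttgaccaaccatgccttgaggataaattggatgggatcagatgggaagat
The match begins 191 bases before the start used here. The search took the first listed start of each gene, so any other start of ATF3 was not searched. Of 22 list members with a promoter entry, 6 held the element on either strand (27.3%), against 3.67% of all promoters. Among the 8 with an entry that rose it was 2 (25.0%).

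**Figure D4:**
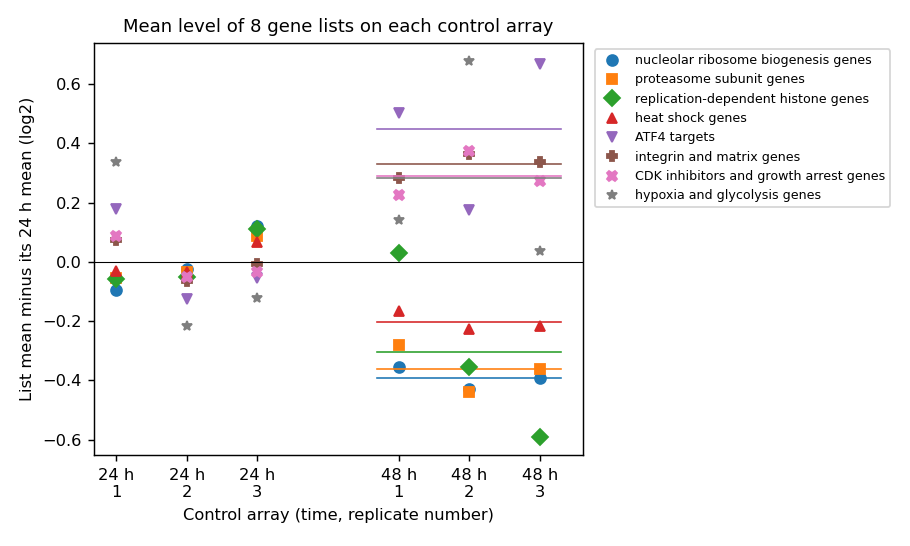
Mean log2 level of 8 gene lists on each control array, as the difference from the list's mean over the 3 arrays of 24 h; the horizontal lines are the means over the 3 arrays of 48 h. Histone genes on the first 48 h array (8.01, against 7.92 to 8.09 at 24 h) and hypoxia genes on the second (10.64, against 10.00 and 10.11 on the other two) stand apart from the other arrays of that time.

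Autophagy and lysosome genes moved in both directions. Of 34, 6 rose and 6 fell (17.6% each, against 9.89% and 7.89% of all clusters tested), and the median was 0.03. Of clusters with levels between 8.14 and 9.42, where the list's median level of 9.40 lay, 16% rose and 8.18% fell. WIPI1, which acts in autophagosome formation, read 7.78, 7.75 and 7.76 and then 8.76, 8.62 and 9.18 (1.09 ± 0.17, adjusted p = 6.96e-04). GABARAPL1, an autophagosome membrane tag, rose by 0.76 ± 0.14, and the lysosomal enzymes GAA and CTSB rose by 0.71 ± 0.12 and 0.54 ± 0.09. All 4 kept their calls under every alternative. The 4 were named by smallest p and all rose, while the lowest change of the list was -0.65. With the control arrays alone, or without the third array of 48 h, 4 members rose and 4 fell.

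The hypoxia and glycolysis list had a median of 0.21. Of its 35 members 5 rose (14.3%, against 9.89% of all clusters tested) and none fell. VEGFA, the vascular growth factor, read 8.47, 8.11 and 8.15 and then 8.73, 8.77 and 8.76 (0.51 ± 0.09, adjusted p = 0.00147). NDRG1, a strongly hypoxia-responsive gene, read 11.65, 10.26 and 10.38 and then 11.54, 12.41 and 11.43 (1.03 ± 0.33, adjusted p = 0.0396), so its times overlapped. Its call was lost under 5 alternatives. The glycolytic enzyme ENO2 read 8.83, 7.90 and 7.90 and then 8.91, 9.62 and 9.04, so its times did not overlap, and its call was lost under 3 alternatives. The list mean was 10.30, 9.75 and 9.84 at 24 h and 10.11, 10.64 and 10.00 at 48 h, so the first array of 24 h was above 2 of the 48 h arrays. Without that array 10 members rose, without the second or the third of 24 h 2, and without the second of 48 h 1.

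Signalling targets rose more often than they fell. The share that rose was 20.8% for YAP/TEAD targets and 28.6% for the Notch, Wnt and TGF-beta list, against 9.89% of all clusters tested. The median levels of the lists were 8.19 and 8.12. Of clusters with levels between 6.78 and 8.14, 17.1% rose, and of those between 8.14 and 9.42, 16%. Of 24 YAP/TEAD targets 5 rose and none fell (median 0.11), led by RBMS3 (0.86 ± 0.16) and the ligand TGFB2, which read 7.50, 7.54 and 7.61 and then 8.24, 8.61 and 8.26 (0.82 ± 0.13, adjusted p = 7.18e-04). Without the second array of 48 h, 3 rose. Of 28 targets and parts of Notch, Wnt and TGF-beta signalling 8 rose and none fell, with a median of 0.04 that turned to -0.03 when arrays were centred. LTBP2, a matrix protein gene of the family named for latent TGF-beta binding, rose by 0.61 ± 0.12 and the receptor NOTCH3 by 0.57 ± 0.11. This list had 3 rises without the second array of 24 h, 4 without the second of 48 h, and 5 without the first or the third of 48 h.

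Of 28 immediate early genes 3 rose (10.7%, against 9.89% of all clusters tested) and none fell. Of clusters with levels between 6.78 and 8.14, where the median levels of this list and of the HOX genes lay, 17.1% rose. Among the 3 were ATF3 and JUN, part of the AP-1 factor. JUN went from 10.59, 10.25 and 10.27 to 10.71, 11.23 and 10.92 (0.58 ± 0.13, adjusted p = 0.00724). The count of immediate early genes that rose was 7 without the first array of 48 h and 5 without the first of 24 h. It was 2 without any of the second of 24 h, the third of 24 h or the second of 48 h. Of 27 HOX genes 5 rose (18.5%). Changes were 0.30 to 0.47 in HOXD8, HOXB4, HOXD10 and HOXC5, whose calls were lost under 4 to 6 alternatives. With one array left out, 1 to 4 HOX genes rose: 2 without the first array of 24 h, 1 without the second, 3 without the third, and 2 and 1 without the second and the third of 48 h.

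Targets of p53 split. Of 23, 4 rose and 3 fell (17.4% and 13%, against 9.89% and 7.89% of all clusters tested). The list's median level was 8.45, and among clusters between 8.14 and 9.42, 16% rose and 8.18% fell. PMAIP1, the BH3-only protein NOXA, read 10.42, 10.30 and 10.43 and then 10.99, 11.30 and 11.36 (0.84 ± 0.16, adjusted p = 0.00236). GADD45A, a growth arrest gene, rose by 0.70 ± 0.15, and DDB2, of DNA damage recognition, by 0.64 ± 0.14. BAX, which permeabilises mitochondria, read 10.60, 10.54 and 10.66 and then 10.24, 9.88 and 9.69 (-0.66 ± 0.12, adjusted p = 0.00201). MDM2, the feedback inhibitor of p53, did not pass (-0.22, adjusted p = 0.0774). HEK293 cells carry adenoviral genes that are known to bind p53. Of 18 further apoptosis regulators 2 rose and 2 fell (11.1% each). Of these HRK, a BH3-only gene, kept its call under every alternative (0.42 ± 0.09). The 2 falls were lost without the second or the third array of 24 h or the second of 48 h.

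Neuronal genes known from HEK293 moved both ways. Of 32, 10 rose and 3 fell (31.2% and 9.38%, against 9.89% and 7.89% of all clusters tested), with a median of -0.02. The list's median level was 6.96, and among clusters between 6.78 and 8.14, 17.1% rose and 5.52% fell. Among the 10 were STMN2, a regulator of microtubules, from 7.75, 7.50 and 7.63 to 8.47, 8.67 and 8.65 (0.97 ± 0.16, adjusted p = 0.00124), and GABBR1, a subunit of the GABA-B receptor (0.79 ± 0.14). PRRT2, of the synaptic release machinery, had a mean of 7.40 ± 0.016 at 24 h and 8.08 ± 0.103 at 48 h (SD, n = 3), with no overlap between the times, and rose by 0.68 ± 0.09 (adjusted p = 4.00e-04). NEFL rose by 0.24 ± 0.08, a call lost under 6 alternatives. The 3 falls were lost without the second array of 24 h or the third of 48 h.

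Interferon and innate response genes were mostly dim, with a median level of 5.99. Of 33, 6 rose and 1 fell (18.2% and 3.03%, against 9.89% and 7.89% of all clusters tested). The median of 0.03 turned to -0.04 when arrays were centred. IFI44L read 5.56, 5.69 and 5.85 and then 6.71, 6.44 and 7.05 (1.03 ± 0.16, adjusted p = 8.54e-04). IFITM1, a membrane restriction factor, rose by 0.79 ± 0.17, BST2, tetherin, by 0.70 ± 0.15 and TAP1, of antigen peptide transport, by 0.51 ± 0.09. OAS3 (-0.23) and IFIT3 (0.26) did not pass. The list's single fall was lost without the second or the third array of either time. Of 17 NF-kappa-B targets 1 rose (NFKB2, 0.57 ± 0.10) and 1 fell (NFKB1, -0.48 ± 0.13, a call lost without the third array of 24 h or the second of 48 h). Each was 5.88% of that list, against 9.89% and 7.89% of all clusters tested.

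The zinc finger genes named ZNF are mostly sequence-specific repressors. Of 486, 59 rose and 10 fell (12.1% and 2.06%, against 9.89% and 7.89% of all clusters tested). The median level of the list was 7.40, and of all clusters with levels between 6.78 and 8.14, 17.1% rose. The median change was 0.05, which became -0.02 when arrays were centred (42 rose and 27 fell then). ZNF521 read 7.27, 7.59 and 7.47 and then 8.11, 8.11 and 8.19 (0.69 ± 0.10, adjusted p = 4.81e-04). ZNF699 rose by 0.63 ± 0.11, ZNF438 by 0.60 ± 0.10 and ZNF717 by 0.52 ± 0.09. The control arrays alone gave 29 rises and 4 falls. The rises numbered 32 without the second array of 24 h and 29 without the third of 48 h, and the falls 3 without the second array of either time, 5 without the third of 24 h and 6 without the third of 48 h.

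Several gene families were read at low levels. Olfactory receptor genes, read at a median level of 4.37, had 23 falls and no rise among 361 clusters, with a median change of -0.08. The share that fell was 6.37%, against 7.89% of all clusters tested and 4.74% of those with levels between 2.61 and 5.34. Keratin-associated protein genes had 11 falls among 67 (16.4%, median -0.16). MicroRNA clusters had 21 falls and 1 rise among 164 (12.8% fell, median -0.07). The median levels of these lists were 6.16 and 4.59. Of clusters with levels between 5.34 and 6.78, 8.06% fell. KRTAP5-1 read 8.77, 8.68 and 8.33 and then 8.20, 8.15 and 8.04 (-0.46 ± 0.11). The dimmest clusters as a whole moved the same way: in the lowest 2 of 5 bins by level, 34.4% and 31.9% of clusters had a positive change and the medians were -0.06 and -0.10, against 55.1% and 0.04 in the third bin. What part the dim range has in these calls was not tested.

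These counts depended on the settings. Among olfactory receptors 1 fell with the control arrays alone, 7 after repeated quantile normalization, 8 after cyclic loess and 59 when arrays were centred. For the keratin-associated genes 2 fell with the control arrays alone and 17 when arrays were centred, and for the microRNA clusters 3 and 37. With an array left out, 9 olfactory receptors fell without the first of 24 h, 6 without the second, 13 without the second of 48 h and 5 without the third. For the keratin-associated genes the matching counts were 4, 4, 5 and 1, and for the microRNA clusters 8, 6, 14 and 7. Protocadherin cluster genes had 1 fall among 31 (3.23%, against 7.89% of all clusters tested), a call lost under 7 alternatives. Germ cell genes, also dim, had 2 rises and 4 falls among 36 (5.56% and 11.1%, against 9.89% and 7.89% of all clusters tested). Besides ZP3, the synaptonemal complex gene SYCP2 rose from 4.36, 4.61 and 4.57 to 5.02, 5.10 and 5.70 (0.76 ± 0.15). The germ cell falls numbered 1 without the second array of either time, 7 without the third of 24 h and 2 without the third of 48 h.

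The time change was also measured in cells given RHOXF1 or RHOXF2, on arrays that share none with the control groups but carry the same division of running numbers between the times. Of the 2098 clusters that rose in control cells, 2066 had a positive change with RHOXF1 and 2012 with RHOXF2. Of the 1674 that fell, 1529 and 1416 had a negative change. The clusters were chosen on the control arrays, so the smaller changes in the other cells (medians of 0.30 and 0.24 for the rises, -0.21 and -0.17 for the falls) are given as values and not as a difference. The nucleolar list had medians of -0.28 with RHOXF1 and -0.23 with RHOXF2, the proteasome -0.23 and -0.21, and the matrix list 0.23 and 0.24.

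**Figure D5:**
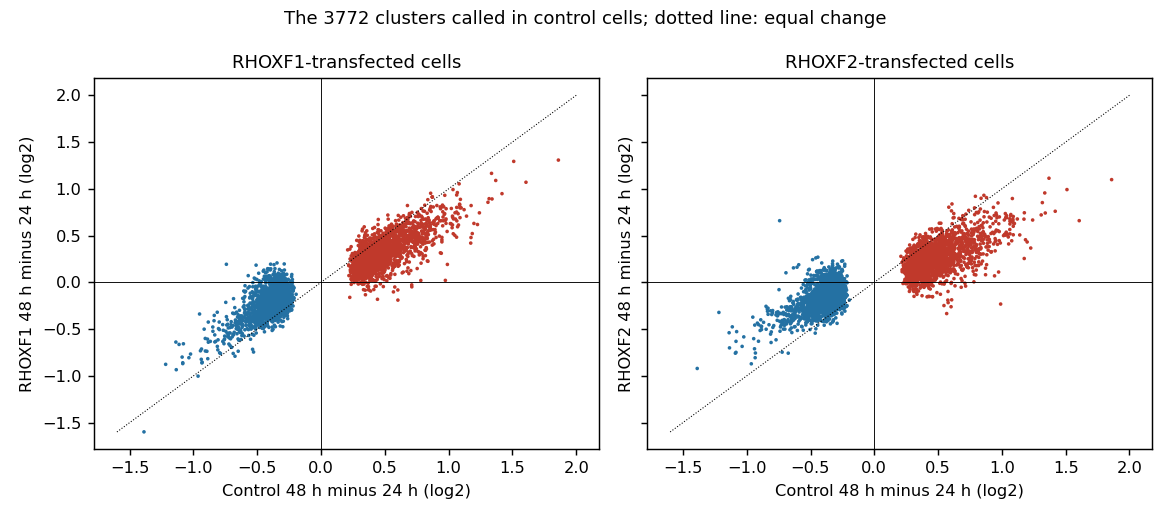
Log2 change from 24 h to 48 h in RHOXF1 (left) and RHOXF2 (right) cells on the vertical axes against that in control cells, for the 3772 clusters that passed in control cells (red higher, blue lower). Most points keep their sign: 2066 of 2098 rises and 1529 of 1674 falls with RHOXF1, 2012 and 1416 with RHOXF2.

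The test of the difference itself gave few calls. For control against RHOXF1, none of the 21214 clusters passed in limma (0%), the lowest adjusted p was 0.950, and 998 had an unadjusted p below 0.05. ADAM20P1, an ADAM pseudogene, had one of the larger differences. It read 4.22, 4.38 and 4.14 and then 4.88, 5.27 and 5.51 in control cells (0.97 ± 0.14, adjusted p = 4.81e-04), against a change of 0.02 with RHOXF1 and 0.11 with RHOXF2. The difference from RHOXF1 was 0.95 ± 0.20 (adjusted p = 0.950). The zinc finger gene ZFP14 changed by 0.60 in control and -0.19 with RHOXF1 (difference 0.79 ± 0.17), and CCDC88C, of the Girdin family, by -0.45 and 0.13 (difference -0.58 ± 0.13). Neither difference passed.

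For control against RHOXF2, 3 clusters passed (0.0141%), while 1857 had an unadjusted p below 0.05. ANKRD1, a target of YAP/TEAD, stayed at 5.52 to 5.67 and 5.41 to 5.61 in control cells, a change of -0.10, and changed by 1.79 with RHOXF2 (difference -1.89 ± 0.28, adjusted p = 0.0168). Both clusters of RFPL4A, of the ret finger protein-like family, also passed, with control changes of -0.01 and -0.15. None of the 3 passed in the control comparison.

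Some genes had other values with RHOXF2 than in control, and did not pass the test of the difference. HSPH1 changed by -1.22 in control and -0.32 with RHOXF2 (difference -0.90 ± 0.22, adjusted p = 0.488). DNAJB1, whose control change did not pass, changed by -0.43 and 0.45 (difference -0.88 ± 0.31, adjusted p = 0.539). ZBTB20, a zinc finger repressor, rose in control from 6.41, 6.47 and 6.66 to 7.48, 7.71 and 7.86 (1.18 ± 0.14, adjusted p = 3.44e-04) and changed by 0.25 with RHOXF2 (difference 0.92 ± 0.20, adjusted p = 0.488).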

How the data were processed

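RNA of 18 samples was measured on Affymetrix Human Gene 1.0 ST arrays, per the labels' array descriptions (the series text names an exon array). The values are the authors' deposited log2 RMA values, made with Expression Console 3.1 per the labels; no further normalization was applied. The genome build is not given in the sources used here. Symbols came from the platform annotation, and 20133 of 20174 Entrez identifiers matched RefSeq; of the named clusters 19461 had 1 symbol and 1753 several, and 703 shared all values with another.

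Differences were fitted by limma 3.58.1 under R 4.3.3 (1 mean per group, 18 arrays, 12 residual degrees of freedom), tested two-sided and adjusted over 21214 clusters at 0.05. The fit was tested on simulated data. No filter on level was used, and the number of arrays limits the precision. Promoters were searched in Python 3.11.15, at the first listed start of each gene.

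Named were the 12 largest rises and 12 largest falls among single-symbol clusters that passed and whose times did not overlap, up to 4 passing and 2 other members per list by smallest p, HSPH1, DNAJB1, ADAM20P1 and PRRT2, and for each difference in time change up to 5 per direction, or 3 where none passed. Not every gene so chosen is printed. The comparison, the members and the lists were chosen with earlier results of these data known. Alternatives were other sets of arrays, variance models, scalings, filters and replicates.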

Additional observations from a re-analysis of the deposited data

Results flagged for a closer look

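Control cells and RHOXF2 cells differed in their time change for 3 clusters, by the test of the difference itself in limma. For ANKRD1 the control change minus the RHOXF2 change was -1.89 ± 0.28 (adjusted p = 0.0168). For RFPL4A it was -1.09 ± 0.16 in one cluster (adjusted p = 0.0168) and -1.28 ± 0.17 in the other (adjusted p = 0.00914); both clusters name the same gene and are not independent. None of the 3 passed with control and RHOXF2 arrays alone or after cyclic loess. The control arrays read 5.13 to 5.67 for these clusters at both times, below the median of the named clusters.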

How the results depend on the processing

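Of the 169 named genes that passed, 105 passed under each alternative that tested them. The 3772 clusters became 1595 with the control arrays alone (1067 higher, 528 lower; 41.9% of the calls shared) and 3659 were lower when arrays were centred. Leaving out 1 array gave 2073 to 4077 clusters, 1214 to 2383 higher and 809 to 1840 lower. The replicate numbers did not pair the samples: the deviations of same-numbered control arrays correlated at 0.08, -0.06 and 0.09, and none correlated best with its own number. With the number as a block, 4018 clusters passed (2193 higher, 1825 lower). The difference from RHOXF1 gave 0 or 1 cluster when 1 array was left out. The difference from RHOXF2 gave 0 with control and RHOXF2 arrays alone and after cyclic loess, 0 among clusters above the median level, where the 3 dim clusters were not tested, and 0 to 3 when 1 array was left out. The control change of RFPL4A, near 0, turned to 0.0641 after repeated quantile normalization and 0.0729 after cyclic loess, and ran from -0.0691 to 0.0454 when 1 array was left out. Variance model, level filter, repeated normalization, single symbols and an array of RHOXF2 cells that stands apart kept the control count within 1.5 times. Dim clusters limit what small falls show, since signal over background was not used here.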
